A study of Mus musculus with 9 samples.

Results

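The basement membrane collagens studied here are the 6 chains of collagen IV and the single chains of collagens XV and XVIII. They were taken by gene symbol, and all 8 were found among the 43346 genes of the deposited table. The libraries came from lung fibroblasts sorted as GFP+, CD45-, CD31- and EpCAM- from Col1a1-GFP mice aged 72 weeks by the sample labels and 18 months by the study's protocol. All mice carried the GFP transgene, which reports activity of a collagen I promoter, so the sort takes cells with an active collagen I promoter. Aged sham mice (n = 4) received saline and aged bleo mice (n = 5) 1 dose of bleomycin into the trachea, and lungs were taken at day 30. The mice were males on an FVB background. Bleomycin is a drug that breaks DNA and is used to produce lung fibrosis. Poly(A) RNA was sequenced in bulk, with 1 library per sample label. Nothing in the labels names the animal behind each library, so the p-values measure the spread between these libraries.

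Collagen IV is the network-forming collagen of basement membranes, the thin matrix sheets under epithelium and endothelium and around smooth muscle, fat and nerve cells. Its chains assemble into trimers of fixed makeup. The chains of Col4a1 and Col4a2 form the trimer found in nearly all basement membranes, those of Col4a3, Col4a4 and Col4a5 form the trimer of the glomerulus and the alveolus, and those of Col4a5 and Col4a6 form a trimer found around smooth muscle and under some epithelia. Collagens XV and XVIII are close relatives that carry glycosaminoglycan chains and sit at the junction between the basement membrane and the matrix around it. Their C-terminal ends can be cut off, and the fragment of collagen XVIII is endostatin, an inhibitor of vessel growth.

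The collagen IV genes lie in 3 pairs whose members start next to each other and run in opposite directions, as given by the deposited coordinates (GRCm38) and by GENCODE M21 for the strand. All 8 genes have the same start and end in both. Col4a1 (ENSMUSG00000031502, chr8:11198423-11312826, minus strand) and Col4a2 (ENSMUSG00000031503, chr8:11312805-11449287, plus strand) overlap by 22 bases within exons of both genes. Col4a4 (ENSMUSG00000067158, chr1:82448423-82586849, minus strand) and Col4a3 (ENSMUSG00000079465, chr1:82586921-82722059, plus strand) are separated by 71 bases. Col4a6 (ENSMUSG00000031273, chrX:141165403-141474076, minus strand) and Col4a5 (ENSMUSG00000031274, chrX:141475385-141689234, plus strand) are separated by 1308 bases. Col15a1 (ENSMUSG00000028339, chr4:47208161-47313167, plus strand) and Col18a1 (ENSMUSG00000001435, chr10:77052178-77166548, minus strand) have no partner among the 8.

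**Figure D1:**
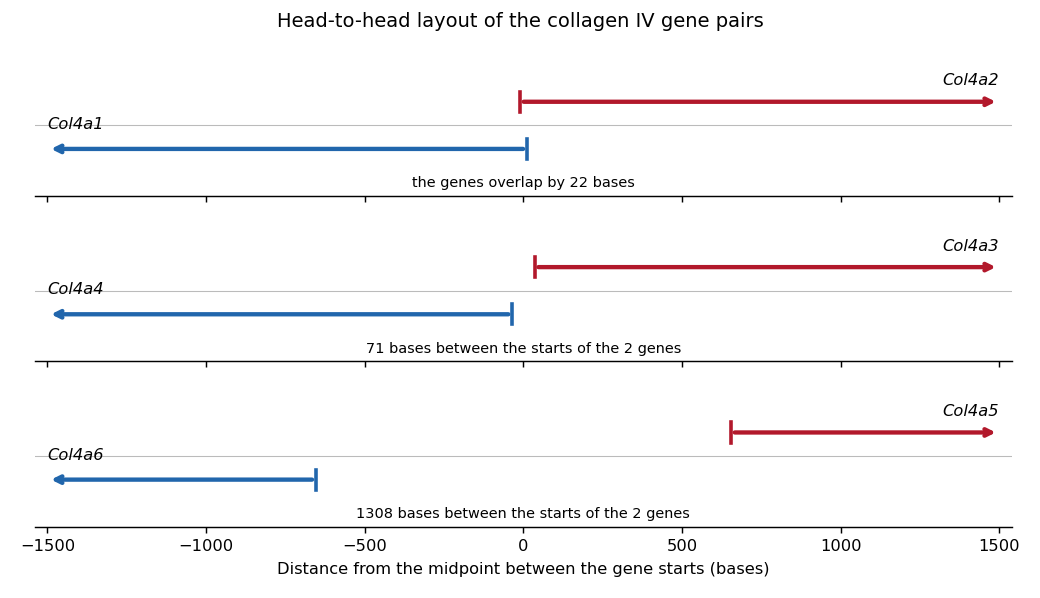
Start sites of the 3 collagen IV gene pairs, drawn to scale as the distance in bases from the midpoint between the starts, with arrows in the direction of transcription (red, plus strand and blue, minus strand). Col4a1 and Col4a2 overlap by 22 bases, while 71 bases lie between Col4a4 and Col4a3 and 1308 bases between Col4a6 and Col4a5.

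The start regions are shown because the members of each pair start near each other. Col4a5 and Col4a6 lie 1308 bases apart, and the sequences shown for them do not overlap. RefSeq windows of 300 bases (250 before and 50 after the RefSeq start, GRCm38.p6) were held for 7 of the 8 genes, with 2 windows for Col18a1. The RefSeq start can differ from the gene start given above. The Col15a1 window (chr4:47207762-47208061) ends before the gene start at 47208161. In the sequences below, capitals mark matches, on either strand, to the GC box (GGGCGG), the CCAAT box (CCAAT), the TATA box (TATAAA), the CTC box (CCCTCCCC) and the CAGA box (CAGAC). Among all 32851 windows, 35.7% hold the GC box, 37.4% the CCAAT box, 13.6% the TATA box, 10.8% the CTC box and 49.6% the CAGA box. The first sequence is the 78 bases that the windows of Col4a1 and Col4a2 have in common (chr8:11312777-11312854, written on the plus strand). The others are written in the direction of the gene they belong to, for Col4a2 (chr8:11312555-11312854, plus strand), Col4a4 (chr1:82586800-82587099, minus strand), Col4a5 (chrX:141475169-141475468, plus strand) and Col4a6 (chrX:141474027-141474326, minus strand).
Col4a1 and Col4a2, shared: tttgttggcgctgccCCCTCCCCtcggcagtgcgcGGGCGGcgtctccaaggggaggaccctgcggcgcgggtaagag
Col4a2: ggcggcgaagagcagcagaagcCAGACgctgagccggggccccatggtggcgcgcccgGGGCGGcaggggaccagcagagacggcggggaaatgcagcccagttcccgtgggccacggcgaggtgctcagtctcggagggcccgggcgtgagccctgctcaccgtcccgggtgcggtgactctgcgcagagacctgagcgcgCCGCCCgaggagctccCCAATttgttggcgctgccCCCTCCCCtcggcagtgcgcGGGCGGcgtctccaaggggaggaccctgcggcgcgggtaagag
Col4a4: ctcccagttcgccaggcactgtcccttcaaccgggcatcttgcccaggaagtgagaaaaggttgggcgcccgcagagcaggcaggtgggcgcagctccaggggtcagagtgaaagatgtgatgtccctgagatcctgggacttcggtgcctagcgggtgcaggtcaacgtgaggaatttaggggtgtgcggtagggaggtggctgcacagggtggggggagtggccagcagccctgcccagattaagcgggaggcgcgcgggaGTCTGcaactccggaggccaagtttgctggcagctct
Col4a5: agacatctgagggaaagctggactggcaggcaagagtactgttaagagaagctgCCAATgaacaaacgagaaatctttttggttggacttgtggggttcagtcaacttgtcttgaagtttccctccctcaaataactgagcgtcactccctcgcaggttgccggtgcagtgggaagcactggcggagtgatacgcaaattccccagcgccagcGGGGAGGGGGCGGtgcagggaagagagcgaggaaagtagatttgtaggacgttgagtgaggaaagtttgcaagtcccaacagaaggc
Col4a6: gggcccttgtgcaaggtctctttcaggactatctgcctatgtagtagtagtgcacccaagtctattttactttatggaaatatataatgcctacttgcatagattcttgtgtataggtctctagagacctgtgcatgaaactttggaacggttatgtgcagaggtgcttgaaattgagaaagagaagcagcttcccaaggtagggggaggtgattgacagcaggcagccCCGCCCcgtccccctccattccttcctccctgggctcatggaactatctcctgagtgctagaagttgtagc

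The 78 shared bases of Col4a1 and Col4a2 hold 1 CTC box and 1 GC box, and the whole Col4a2 window holds 3 GC boxes, 1 CCAAT box, 1 CTC box and 1 CAGA box. The Col4a5 window also has the CTC box, a GC box that overlaps it by 1 base, and a CCAAT box. The Col4a6 window has 1 GC box and no other match. The Col4a4 window, in which Col4a3 starts on the opposite strand at base 179 and Col4a4 at base 251, has 1 CAGA box alone. None of the 8 windows of the 7 genes has a TATA box. G and C made up 74.0% and 73.7% of the Col4a1 and Col4a2 windows, 63.3% of that of Col4a4, 52.7% and 48.3% of those of Col4a5 and Col4a6, and 52.3% of that of Col15a1, beside a median of 52.7% over all windows. The windows of Col18a1 had 63.3% for the upstream start and 59.7% for the downstream one. The counts are per gene, so transcripts from these starts of Col18a1 were not separated.

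Counts per library summed to between 49921946 and 68260600. All 8 genes had an average count of at least 25, the study's minimum for testing, with 116 counts at the lowest (Col4a3 in aged bleo 4). Levels within a gene are given as CPM, the counts scaled to a common library size with edgeR's TMM factors, and levels between genes as the deposited FPKM, which is also scaled to gene length. Genes with an FDR (Benjamini-Hochberg adjusted p over all 16877 genes tested) under 0.10 and a fold change over 1.5 in edgeR's quasi-likelihood test were called differentially expressed. Transcripts of other cell types were present, at levels that differed widely between markers. The epithelial marker Epcam was at 0.485 to 0.798 CPM in aged sham and 0.409 to 1.20 CPM in aged bleo and the endothelial marker Pecam1 at 5.63 to 6.70 CPM in aged sham and 2.44 to 6.39 CPM in aged bleo, whereas the leukocyte marker Ptprc (CD45) was at 42.3 to 169 CPM in aged sham and 30.6 to 183 CPM in aged bleo. Some other markers were higher. The sum of 10 epithelial markers reached 112 CPM (aged sham 3) and that of 10 endothelial markers 298 CPM (aged sham 4). That of 6 macrophage markers reached 1809 CPM (aged bleo 4). The sums of 6 leukocyte, 6 macrophage and 6 neutrophil markers were highest in aged sham 4 and aged bleo 4 within their groups. Of the fibroblast markers Pdgfra, Col1a1 and Dcn, none was under 440.2 CPM in any library. The names of the aged sham libraries and of aged bleo 4 share a suffix, 4, whose meaning is not stated. In bulk RNA, a change in the number of cells of a type cannot be told apart from a change of RNA per cell.

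Of the 8 collagen genes, 4 were higher and 2 lower in aged bleo. Over all genes tested, 23.8% were called, 12.3% as higher and 11.5% as lower. Col4a1, Col4a2, Col15a1 and Col18a1 rose, Col4a3 and Col4a4 fell, and Col4a5 and Col4a6 did not pass the test. The median log2 fold change of the 8 was 0.35, beside 0.0064 for all genes tested. In 7 of the 8 genes the groups did not overlap, with every aged bleo library above every aged sham library in 4 genes (16.1% of all genes tested) and below in 3 (16.1%).

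**Figure D2:**
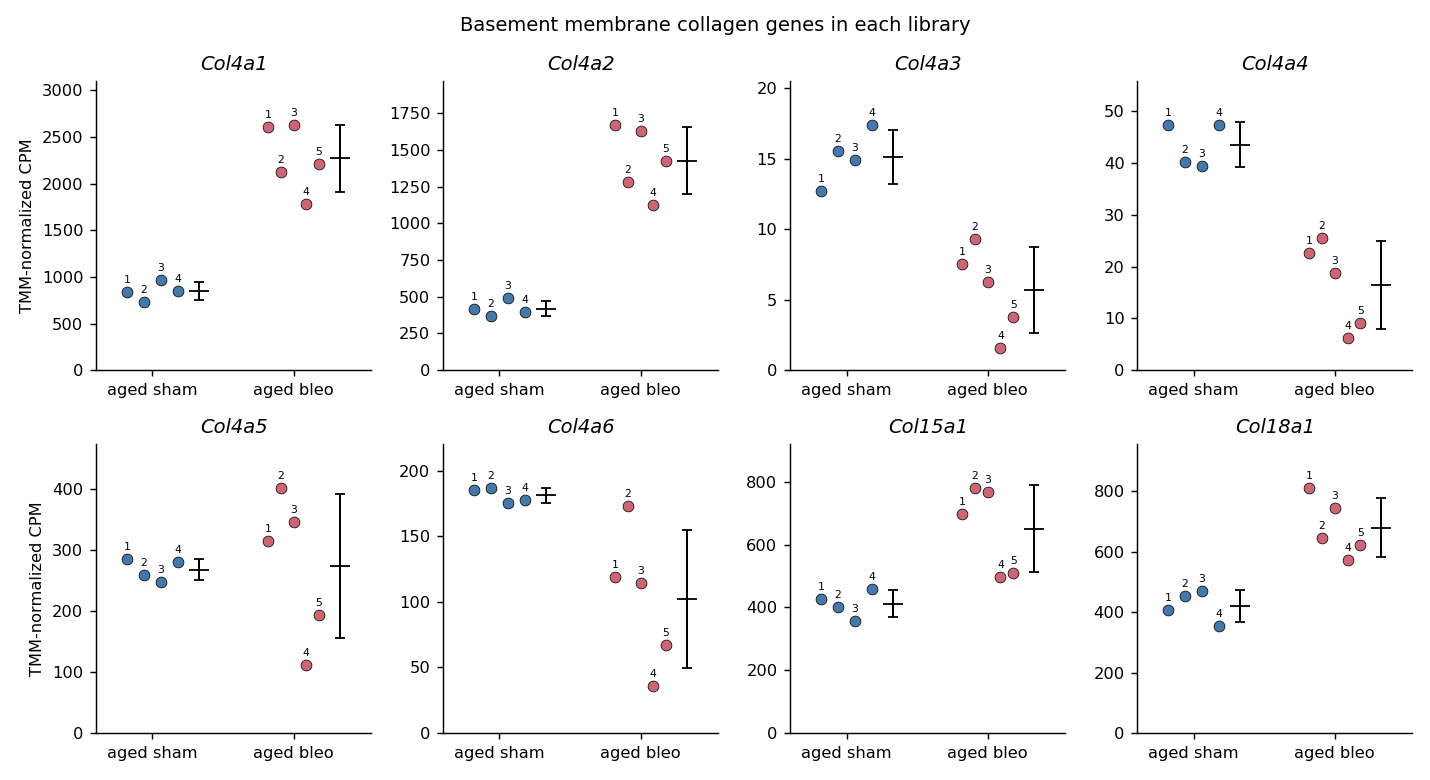
TMM-normalized CPM of the 8 genes in each library, 1 point per library with its replicate number, and the mean with its SD beside each group. Aged bleo lies above aged sham for Col4a1, Col4a2, Col15a1 and Col18a1 and below it for Col4a3, Col4a4 and Col4a6, and the groups overlap for Col4a5.

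Col4a1 and Col4a2, which encode the chains of the common collagen IV trimer, rose most. Col4a1 was at 839, 731, 971 and 849 CPM in aged sham 1 to 4 and at 2609.7, 2128, 2626, 1779.5 and 2211 CPM in aged bleo 1 to 5. The lowest aged bleo library thus had more than any aged sham library. The mean was 848 ± 98.2 CPM in aged sham (SD, n = 4) against 2271 ± 356 CPM in aged bleo (SD, n = 5) (log2 fold change of 1.42 ± 0.15 SE, FDR 2.39e-04), 2.68-fold. Col4a2 was at 414, 371, 495 and 398 CPM in aged sham 1 to 4 and at 1668, 1281, 1628, 1128 and 1425 CPM in aged bleo 1 to 5. Its mean was 419.5 ± 53.1 CPM in aged sham (SD, n = 4) against 1426 ± 229 CPM in aged bleo (SD, n = 5) (log2 fold change of 1.77 ± 0.15 SE, FDR 7.96e-05), 3.40-fold. Both genes had their lowest aged bleo level in aged bleo 4 and their highest in aged bleo 1 and 3. Their spread within aged bleo was small, with the highest library 1.48 times the lowest for either gene.

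The rise of the pair was unequal. Per length, the FPKM of Col4a2 over that of Col4a1 was 0.508, 0.523, 0.525 and 0.483 in aged sham 1 to 4 and 0.659, 0.620, 0.638, 0.653 and 0.664 in aged bleo 1 to 5. Col4a2 was the less abundant chain in every library, and no aged bleo ratio reached down to the aged sham range (difference of log2 ratios 0.34, two-sided exact permutation p = 0.00794, adjusted 0.0167 over 21 ratios). No smaller p can be had from 4 and 5 libraries. The mean ratio was 0.510 ± 0.0192 (SD, n = 4) in aged sham and 0.647 ± 0.0177 (SD, n = 5) in aged bleo. The trimer itself holds Col4a1 and Col4a2 chains in unequal number, with more of the former.

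Col4a3 and Col4a4, whose chains join that of Col4a5 in the alveolar and glomerular trimer, were scarce and fell. Col4a3 was at 12.7, 15.6, 14.9 and 17.4 CPM in aged sham 1 to 4 and at 7.50, 9.33, 6.22, 1.58 and 3.74 CPM in aged bleo 1 to 5. The mean was 15.1 ± 1.92 CPM in aged sham (SD, n = 4) against 5.67 ± 3.06 CPM in aged bleo (SD, n = 5) (log2 fold change of -1.42 ± 0.41 SE, FDR 0.0262), 2.67-fold lower. Col4a4 was at 47.3, 40.3, 39.5 and 47.4 CPM in aged sham 1 to 4 and at 22.6, 25.6, 18.8, 6.28 and 9.10 CPM in aged bleo 1 to 5. The mean was 43.6 ± 4.33 CPM in aged sham (SD, n = 4) against 16.5 ± 8.42 CPM in aged bleo (SD, n = 5) (log2 fold change of -1.41 ± 0.37 SE, FDR 0.0177), 2.65-fold lower. For both genes the aged sham libraries stood close together, while aged bleo spread over a range of 5.89-fold and 4.07-fold, lowest in aged bleo 4 and highest in aged bleo 2. The FPKM of Col4a4 was 2.43 to 3.50 times that of Col4a3 in aged sham and 2.29 to 3.73 times in aged bleo, with no difference past the test (difference of log2 ratios 0.050, two-sided exact permutation p = 0.738, adjusted 0.775).

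Type 1 alveolar epithelial cells are known to make these chains, and 3 of 10 epithelial markers, Ager, Hopx and Cldn18, fell as well. Ager, a marker of those cells, was at 5.30, 32.8, 17.3 and 23.8 CPM in aged sham 1 to 4 and at 1.86, 2.74, 1.72, 2.25 and 1.34 CPM in aged bleo 1 to 5. Cldn18 was at 1.91, 7.70, 6.45 and 6.05 and 0.670, 1.35, 0.672, 1.17 and 0.714 CPM in the same order. Of the 10 epithelial markers, 3 were thus lower in aged bleo and 1, Krt8, was higher (log2 fold change 1.12, FDR 0.00457). Aqp5 was not called (log2 fold change 0.67, FDR 0.146). Epcam, Cdh1, Krt18, Sftpc and Sftpb were not called either, and their log2 fold changes were positive. The summed level of the 10 markers was 22.1 to 112 CPM in aged sham and 24.9 to 60.2 CPM in aged bleo. None was at 0 in any library. Aged sham 1 had the lowest Ager and the lowest Col4a3 of aged sham, whereas its Col4a4 was among the highest of the group. The part of epithelial transcripts in the fall of Col4a3 and Col4a4 was not tested. The gene C430014B12Rik shares 563 of the 9967 exonic bases of Col4a3 on the other strand, and the kit does not mark strand, so reads there cannot be told apart. It was at 2.78 to 4.56 CPM over the 9 libraries, with overlapping groups.

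Col4a5 and Col4a6 encode the chains of the trimer found around smooth muscle, and Col4a5 is shared with the trimer of Col4a3 and Col4a4. Col4a5 was at 286, 258, 247 and 280.0 CPM in aged sham 1 to 4 and at 315, 402, 346, 112 and 193 CPM in aged bleo 1 to 5. Aged bleo 1, 2 and 3 lay above all aged sham libraries and aged bleo 4 and 5 below all of them. The means were close, at 268 ± 17.9 CPM in aged sham (SD, n = 4) against 274 ± 119 CPM in aged bleo (SD, n = 5) (log2 fold change of 0.031 ± 0.32 SE, FDR 0.951). Col4a6 was at 185, 187, 175 and 178 CPM in aged sham 1 to 4 and at 119, 173, 114, 35.9 and 66.9 CPM in aged bleo 1 to 5. Every aged bleo library was below every aged sham library, and aged bleo 2 nearly reached them. The mean of Col4a6 was 181 ± 5.72 CPM in aged sham (SD, n = 4) against 102 ± 52.7 CPM in aged bleo (SD, n = 5). With an FDR limit of 0.10, Col4a6 narrowly failed (log2 fold change of -0.83 ± 0.36 SE, FDR 0.103). Without aged bleo 2 the log2 fold change was -1.11 (FDR 0.0276), and without aged bleo 4 it was -0.62 (FDR 0.0701), both past the thresholds. With any other single library left out, Col4a6 failed, at an FDR of 0.126 (without aged bleo 1) to 0.196 (without aged bleo 5).

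The ratio within the pair changed. The FPKM of Col4a6 over that of Col4a5 was 0.547, 0.610, 0.597 and 0.536 in aged sham 1 to 4 and 0.319, 0.363, 0.278, 0.271 and 0.292 in aged bleo 1 to 5. The groups did not overlap, at 0.573 ± 0.0363 (SD, n = 4) in aged sham and 0.305 ± 0.0372 (SD, n = 5) in aged bleo (difference of log2 ratios -0.92, two-sided exact permutation p = 0.00794, adjusted 0.0167). Col4a6 thus fell relative to Col4a5 by 1.89-fold, although neither gene alone passed the test. Col4a5 fell relative to Col4a1, with an FPKM ratio of 0.345, 0.359, 0.259 and 0.335 in aged sham 1 to 4 and 0.123, 0.192, 0.134, 0.0637 and 0.0886 in aged bleo 1 to 5 (difference of log2 ratios -1.52, two-sided exact permutation p = 0.0159, adjusted 0.0208). Of the smooth muscle and pericyte markers, Myh11 was lower in aged bleo (923 to 1810.3 CPM in aged sham and 213 to 990.3 CPM in aged bleo), as were Abcc9 and Kcnj8, while Pdgfrb, Notch3, Higd1b and Cox4i2 were higher. Of the 12 markers, 4 were thus higher and 3 lower, none was at 0, and their sum was 3657 to 6312 CPM in aged sham and 2472 to 4185 CPM in aged bleo. Their part in the levels of Col4a5 and Col4a6 was not tested.

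**Figure D3:**
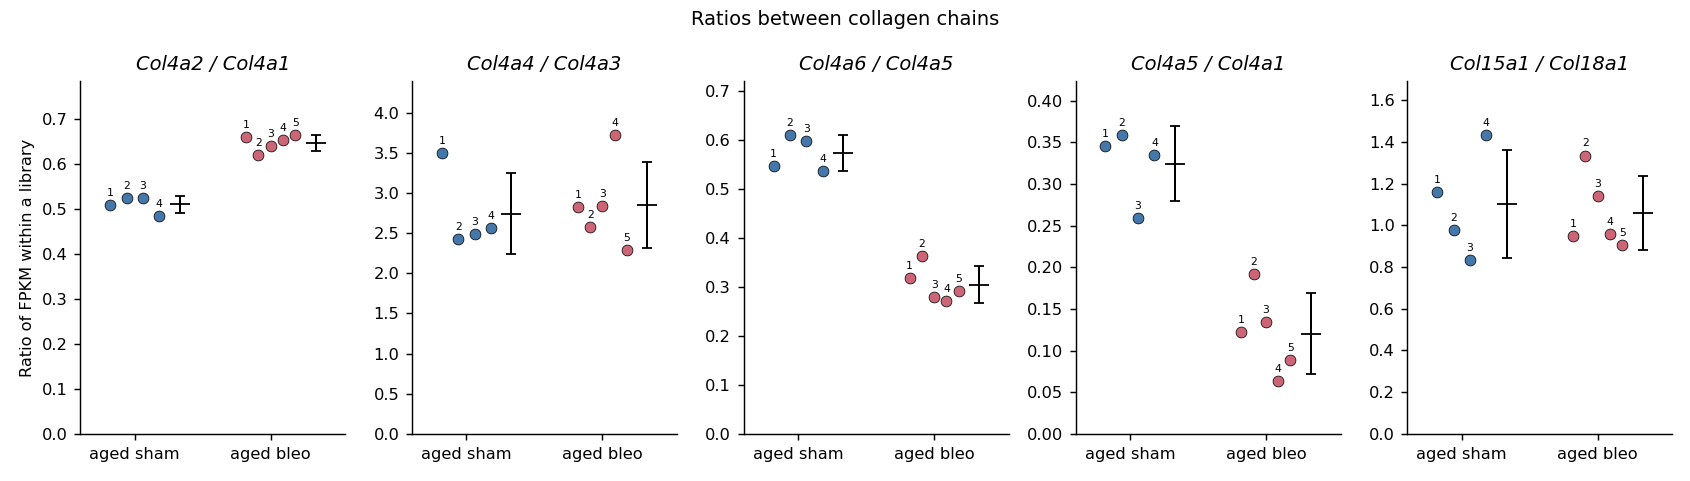
Ratio of FPKM between 2 chains within each library, 1 point per library with its replicate number, and the mean with its SD beside each group. Aged bleo lies above aged sham for Col4a2 over Col4a1 and below it for Col4a6 over Col4a5 and Col4a5 over Col4a1, and the groups overlap for Col4a4 over Col4a3 and Col15a1 over Col18a1.

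Among aged bleo libraries, Col4a3, Col4a4, Col4a5, Col4a6 and Col15a1 each had their highest level in aged bleo 2 and their 2 lowest in aged bleo 4 and 5. The highest was 3.60 to 5.89 times the lowest for the 4 collagen IV chains and 1.57 times for Col15a1. In aged sham these genes differed by no more than 1.37 times between libraries. Genes of resting fibroblasts were also lowest in aged bleo 4 and 5. Tcf21, a transcription factor of lung fibroblasts, was at 57.3, 67.2, 64.7, 29.4 and 29.4 CPM in aged bleo 1 to 5 and at 99.4 to 117 CPM in aged sham. Cd34, a surface marker of adventitial fibroblasts, was at 576, 650.0, 516, 215 and 271 CPM in aged bleo 1 to 5 and at 1171 to 1434 CPM in aged sham. Of the 10 fibroblast identity genes, 5 were lower (Dcn, Tcf21, Dpt, Pi16 and Cd34) and 3 higher in aged bleo (Col1a1, Col1a2 and Fn1). Their summed level was 27997 to 34378 CPM in aged sham and 44674 to 62796 CPM in aged bleo, and none was at 0. The sum includes Col1a1, at 3649 to 4559 CPM in aged sham and 13560 to 25954 CPM in aged bleo. The summed endothelial markers were also lower in aged bleo (255 to 298 CPM in aged sham and 89.8 to 144 CPM in aged bleo), which was mostly Tek (149 to 179 CPM in aged sham and 9.51 to 55.7 CPM in aged bleo), with 2 of the 10 markers called higher and 1 lower. The sum of 4 Schwann cell markers was 37.7 to 57.8 CPM in aged sham and 15.5 to 30.2 CPM in aged bleo, with 1 called lower. None of these markers was at 0 in any library. The smooth muscle and pericyte markers Myh11, Abcc9 and Kcnj8 and the endothelial marker Tek were likewise lowest in aged bleo 4 and 5. The pericyte marker Rgs5 was lowest in aged bleo 4 but highest in aged bleo 5. Aged bleo 4 also had the highest leukocyte and macrophage sums of aged bleo, at 545 and 1809 CPM. The part of all these genes in the spread of the collagen genes was not tested.

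Col15a1 and Col18a1, the genes of the basement membrane zone collagens, rose by similar and smaller amounts. Col15a1 was at 428, 402, 357 and 458 CPM in aged sham 1 to 4 and at 697, 781, 769, 498 and 509.8 CPM in aged bleo 1 to 5. Aged bleo 4 and 5 exceeded the highest aged sham library by little. The mean was 411 ± 43.0 CPM in aged sham (SD, n = 4) against 651 ± 138 CPM in aged bleo (SD, n = 5) (log2 fold change of 0.66 ± 0.17 SE, FDR 0.0145), 1.58-fold. Col18a1 was at 407, 454, 472 and 353 CPM in aged sham 1 to 4 and at 812, 647, 746, 574 and 622 CPM in aged bleo 1 to 5. The mean was 422 ± 53.0 CPM in aged sham (SD, n = 4) against 680.1 ± 96.9 CPM in aged bleo (SD, n = 5) (log2 fold change of 0.69 ± 0.13 SE, FDR 0.00502), 1.61-fold. The FPKM of Col15a1 over that of Col18a1 ranged from 0.836 to 1.43 in aged sham and from 0.907 to 1.33 in aged bleo (difference of log2 ratios -0.045, two-sided exact permutation p = 0.802, adjusted 0.802). The spread among aged sham libraries was wider than the difference between the group means.

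**Figure D4:**
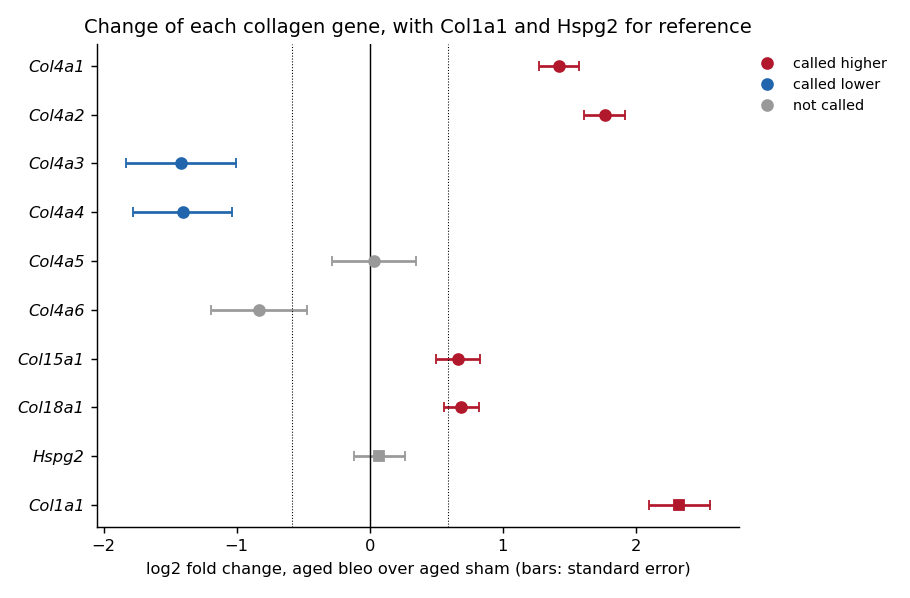
Log2 fold change of aged bleo over aged sham for the 8 collagen genes (circles) and for Hspg2 and Col1a1 (squares), with the standard error as bars and the 1.5-fold threshold as dotted lines. The values run from -1.42 for Col4a3 to 1.77 for Col4a2, below the 2.33 of Col1a1.

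Per length, Col4a1 was the most abundant of the 8 genes in aged sham, at 52.1 ± 6.09 FPKM (SD, n = 4), above 98.1% of the genes tested. Col15a1, Col4a2 and Col18a1 followed at 27.1 ± 2.48, 26.6 ± 3.51 and 25.2 ± 3.54 FPKM, and did not differ beyond their spread. Col4a5 at 16.7 ± 0.939 FPKM and Col4a6 at 9.55 ± 0.381 FPKM came next, without overlap between them or with their neighbors. Col4a4 and Col4a3 had 1.72 ± 0.148 and 0.636 ± 0.0762 FPKM. In aged bleo the order of the first 4 genes was changed. Col4a1 was at 143 ± 20.2 FPKM (SD, n = 5), and Col4a2 was now the second, at 92.5 ± 13.7 FPKM, above every library of Col15a1 (43.9 ± 8.30 FPKM) and Col18a1 (41.6 ± 5.50 FPKM). The last 2 overlapped, as did Col4a5 at 17.4 ± 7.21 and Col4a6 at 5.45 ± 2.73 FPKM, and Col4a4 at 0.661 ± 0.330 and Col4a3 at 0.242 ± 0.128 FPKM. These overlaps are between libraries. Within every aged bleo library Col4a5 was above Col4a6, and Col4a4 was above Col4a3.

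The summed FPKM of the 6 collagen IV chains was 107 ± 8.78 (SD, n = 4) in aged sham and 259 ± 39.5 (SD, n = 5) in aged bleo. Its makeup shifted toward the chains of the common trimer. Col4a1 and Col4a2 together made up 73.2 ± 2.80% in aged sham (SD, n = 4) and 91.0 ± 3.62% in aged bleo (SD, n = 5). Col4a5 made up 15.7 ± 1.72% in aged sham (SD, n = 4) and 6.57 ± 2.47% in aged bleo (SD, n = 5), and Col4a6 8.95 ± 0.972% in aged sham (SD, n = 4) and 2.06 ± 1.01% in aged bleo (SD, n = 5). Aged bleo 2 kept the largest share of Col4a3 to Col4a6 among aged bleo, at 14.4%, and aged bleo 4 the smallest, at 4.83%. The lowest share in aged sham was 22.8%. These shares describe the libraries and were not tested.

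**Figure D5:**
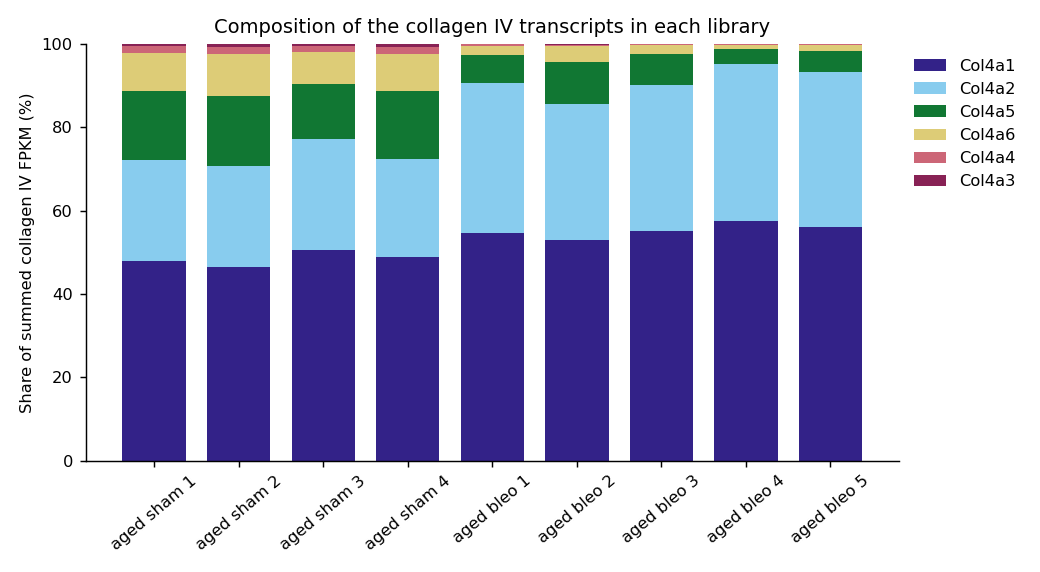
Share of each chain in the summed collagen IV FPKM of each library, as stacked bars that add to 100%. Col4a1 and Col4a2 hold 70.8% to 77.2% in aged sham and 85.6% to 95.2% in aged bleo.

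Of all FPKM on the 44 collagen genes of the table, the 8 genes held 10.7 ± 1.24% in aged sham (SD, n = 4) and 8.04 ± 1.52% in aged bleo (SD, n = 5), and the 11 fibrillar collagen genes 58.3 ± 1.85% in aged sham (SD, n = 4) and 76.5 ± 4.09% in aged bleo (SD, n = 5). Col1a1, a chain of collagen I and the gene behind the GFP reporter, went from 4154 to 20853 CPM (log2 fold change of 2.33 ± 0.23 SE, FDR 1.76e-04). The log2 ratio to Col1a1 was lower in aged bleo for 7 of the 8 genes past an adjusted p of 0.10 (two-sided exact permutation tests, adjusted over 21 ratios). Any gene that rises less than Col1a1 has a lower ratio to it, so these differences include the rise of Col1a1 itself. The same ratio was not computed for all genes, so no share over all genes stands beside this count. The difference was -0.88 (adjusted p = 0.0208) for Col4a1, -1.65 (adjusted p = 0.0208) for Col15a1, -1.61 (adjusted p = 0.0167) for Col18a1 and -3.94 (adjusted p = 0.0167) for Col4a3 in these permutation tests. For Col4a2 it was -0.54 (adjusted p = 0.111), not past the threshold by exact permutation, and without aged bleo 2 it was -0.65 (exact permutation, adjusted p = 0.0333). With any other single library left out, the ratio of Col4a2 to Col1a1 stayed short of the threshold (exact permutation, adjusted p up to 0.271).

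Against Hspg2, which encodes the basement membrane proteoglycan perlecan, the ratios moved both ways. Hspg2 was at 1217 ± 251 CPM in aged sham (SD, n = 4) and 1279.9 ± 266 CPM in aged bleo (SD, n = 5) and did not pass the test (log2 fold change of 0.072 ± 0.19 SE, FDR 0.797). Relative to it, Col4a1, Col4a2, Col15a1 and Col18a1 were higher in aged bleo by 1.35, 1.69, 0.58 and 0.62 on the log2 scale. For Col4a3, Col4a4 and Col4a6, which were lower, the differences were -1.71, -1.66 and -1.09. The adjusted p-values of these 7 exact permutation tests lay between 0.0167 and 0.0294. For Col4a5 the difference was -0.17 (adjusted p = 0.605) by exact permutation.

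The other basement membrane genes moved in both directions. Of the 21 partners, which include laminins, nidogens, perlecan and agrin, 6 were higher and 8 lower, with a median log2 fold change of -0.26. By FDR the first were Sparc, which encodes a matrix protein that binds collagens (1879.8 to 6186 CPM, log2 fold change 1.72, FDR 1.11e-04), and the laminin alpha chain gene Lama5 (63.7 to 196 CPM, log2 fold change 1.62, FDR 7.11e-04), both higher in aged bleo.

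Of 19 genes for the folding, modification and cross-linking of collagen, 8 were higher (12.3% of all genes tested) and 1 lower (11.5%). Their median log2 fold change was 0.46. The prolyl hydroxylase subunit gene P4ha3 led (3.34 to 104 CPM, log2 fold change 4.95, FDR 1.48e-05), followed by the lysyl hydroxylase gene Plod1 (66.0 to 123 CPM, log2 fold change 0.90, FDR 1.17e-04) and the prolyl 3-hydroxylase gene P3h1, listed under its older symbol Lepre1 (65.3 to 149 CPM, log2 fold change 1.19, FDR 1.93e-04). Pxdn encodes peroxidasin, the enzyme that forms the sulfilimine cross-links of collagen IV, and rose as well (141 to 335 CPM, log2 fold change 1.25, FDR 3.05e-04). It was named after its value was seen. Most of these enzymes also act on fibrillar collagens.

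Of 11 receptor genes, 2 were higher and 2 lower (median log2 fold change -0.44), beside 12.3% higher and 11.5% lower of all genes tested. Itga1 and Itgb1, which encode an integrin that binds collagen IV, rose (25.6 to 71.8 CPM, log2 fold change 1.49, FDR 0.00133 and 773 to 1393 CPM, log2 fold change 0.85, FDR 0.00260). The gene of the fibrillar collagen receptor Ddr2 fell (1113 to 623 CPM, log2 fold change -0.84, FDR 0.0113). Of 10 protease genes, 9 were tested, 4 were higher (12.3% of all genes tested) and 1 lower (11.5%). Their median log2 fold change was 0.26, with Mmp7 under the count minimum. The first by FDR were the elastase gene Mmp12 (0.485 to 47.3 CPM, log2 fold change 6.61, FDR 1.22e-05), the membrane-bound collagenase gene Mmp14 (414 to 1025 CPM, log2 fold change 1.31, FDR 2.12e-04) and the cathepsin gene Ctss (15.6 to 123 CPM, log2 fold change 2.98, FDR 7.76e-04). Macrophages are known to make Mmp12 and Ctss, and the sum of 6 macrophage markers was 221 to 605 CPM in aged sham and 523 to 1809 CPM in aged bleo, with 4 of them called higher and none at 0. Their part in these levels was not tested. Of the 11 fibrillar collagen genes, 10 were tested and 9 were higher (12.3% of all genes tested), with a median log2 fold change of 1.92. Col11a1, a minor fibrillar chain, came first by FDR (0.233 to 60.9 CPM, log2 fold change 8.05, FDR 1.65e-06), then Col5a2 (655 to 3099.9 CPM, log2 fold change 2.24, FDR 5.36e-05) and Col27a1 (51.9 to 123 CPM, log2 fold change 1.25, FDR 1.68e-04).

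The genes whose pattern over the 9 libraries was most like that of a collagen gene were found by the root mean square difference of log2 CPM, each gene centred on its mean. For Col4a1 they were F2r (0.148), Nkd2 (0.164), Epha3 (0.168) and Col4a2 (0.176). Its pair partner Col4a2 was thus the fourth nearest of all genes tested, and Col4a1 was likewise the fourth nearest to Col4a2. For Col15a1 they were Col6a2 (0.118), Col6a1 (0.126), 1700112E06Rik (0.130) and Sema6a (0.135), the first 2 being chains of collagen VI. For Col18a1 they were Ehd3 (0.0807), Fjx1 (0.0859), Fads3 (0.0865) and Bgn (0.0984), of which Bgn encodes the small proteoglycan biglycan. Among the other members, Col4a3 lay 0.221 from Col4a4. Among all genes tested, Col4a4 had rank 17 in nearness to Col4a3, and Col4a3 had rank 88 in nearness to Col4a4. Col4a6 lay 0.321 from Col4a4 and 0.472 from Col4a5, its partner in position. These distances are descriptions of the 9 libraries.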

How the data were processed

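The authors deposited 1 table with a raw count and an FPKM value per gene and library. The counts are not normalized. The deposited FPKM values are per length and per a library size that is 2.27 to 2.42 times the summed counts. The submitters' processing notes name bcl2fastq, STAR 2.5.2b, Subread, featureCounts and the builds mm10 and GRCm38. The strand setting is not given in the sources used here.

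Genes averaging 25 counts or more entered edgeR 4.0.16 (TMM, glmQLFit and glmQLFTest, no covariate) in R 4.3.3 on all 9 libraries. The study used a moderated test, tried here with limma 3.58.1 as an alternative besides DESeq2 1.42.0, other scalings, filters and thresholds, each library left out, and the replicate number as a block. CPM and SD are from TMM-scaled counts, log2 CPM used a prior count of 2, and standard errors come from the fold change and its test. Log2 ratios between genes used counts plus 0.5 and were compared in a two-sided exact permutation test (126 splits), adjusted over 21 ratios. The test was tried on simulated counts for 16877 genes with 200 changed: edgeR recovered 69.0% of 2-fold and 92.0% of 4-fold changes with 15 false calls among 176, while DESeq2 made 64 false calls among 242. The simulated counts were drawn gene by gene with edgeR's dispersions, whereas 4022 genes were called in the data. The numbers of false calls may therefore differ in the data. Pairs of libraries of 1 group had a chi-square of 31.2 to 469 per degree of freedom, well above sampling noise, and each was kept as its own replicate.

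The collagen genes and the lists were chosen with earlier results of these data known. Besides the 8 genes, the genes named are the 3 with the smallest FDR of each list (1 of them is not reported here), Col1a1 and Hspg2 of the ratios, the 4 genes nearest in pattern to Col4a1, Col15a1 and Col18a1, and marker genes of their lists. Sequences are from RefSeq (GRCm38.p6), and no window of Col4a3 was held.

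Other marker lists were leukocyte (1 higher and 0 lower of 6, sum 94.3 to 351 CPM in aged sham and 97.9 to 545 CPM in aged bleo), neutrophil (0 and 0 of 6, 152 to 936 CPM in aged sham and 83.1 to 840.2 CPM in aged bleo) and mesothelial genes (0 and 0 of 5, 22.8 to 71.4 CPM in aged sham and 27.9 to 107 CPM in aged bleo).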

Additional observations from a re-analysis of the deposited data

Results flagged for a closer look

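In 4 of the 58 sets of values looked at (8 genes and 21 ratios in each group), 1 library lay far from the others by Dixon's criterion, which chance gives in about 1 of 20 sets. All were in aged sham. The log2 ratio of Col4a4 to Col4a3 in aged sham 1 was 1.90, where the nearest other library of the group had 1.45 and the farthest 1.37. That of Col4a3 to Col1a1 in aged sham 1 was -8.49, where the nearest other library of the group had -8.01 and the farthest -7.94. Those of Col4a1 and Col4a2 to Col1a1 were high in aged sham 3, at -1.91, where the nearest other library of the group had -2.37 and the farthest -2.46, and at -2.88, where the nearest other library of the group had -3.43 and the farthest -3.47. These sets share genes and libraries and are not independent.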

How the results depend on the processing

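The count of 4022 differentially expressed genes became 1785 with limma-trend on log2(FPKM + 1) and 2158 at stricter thresholds (FDR under 0.05, over 2-fold), and 3525 to 4597 with single libraries left out. Of the 8 collagen genes, 6 to 7 were called with single libraries left out and 4 at the stricter thresholds, where Col15a1 (0.66) and Col18a1 (0.69) were under the fold change by construction. Col4a6 passed the thresholds with size factors of DESeq2 in edgeR (-0.84), library size only (-0.84), DESeq2 (-0.84, a test with more false calls than edgeR in the simulated counts) and limma-trend on log2 CPM (-1.02), log2(FPKM + 0.1) (-0.97) and log2(FPKM + 1) (-0.83), and ranged from -1.11 to -0.62 without single libraries. It failed with the robust fit (FDR 0.108), no filter on low counts (FDR 0.1235), at least 10 counts in every library (FDR 0.102) and the replicate number as a block (FDR 0.1265). Col4a5 changed sign in the 3 limma-trend fits (-0.11 on log2 CPM, -0.069 and -0.057 on log2 FPKM with 0.1 and 1 added), and ranged from -0.15 (without aged bleo 2) to 0.22 (without aged bleo 4). Col4a3 was at -0.40 on log2(FPKM + 1), under the fold change threshold, since 1 exceeds its FPKM. Without single libraries, the log2 fold changes of Col4a1, Col4a2, Col4a3, Col4a4, Col15a1 and Col18a1 stayed past the thresholds, with Col4a3 at -1.67 to -1.18 and Col4a4 at -1.62 to -1.21. The differences of the log2 ratios of Col4a4 to Col4a3 and Col15a1 to Col18a1 changed sign in these ranges (-0.051 to 0.17 and -0.17 to 0.091), and that of Col4a2 to Col1a1 ran from -0.65 to -0.39. Where no cause is given, it was not tested.

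Same-numbered libraries 1 to 3 did not pair (correlations of their deviations -0.130 to 0.0922). Aged sham 4 was closest to aged bleo 4 (correlation 0.326). With the replicate number as a block, 3536 genes and 6 of the 8 were called, with log2 fold changes of 1.42 for Col4a1 and -1.48 for Col4a3, and it changed no call of the 8. Without aged sham 4 and aged bleo 4, an alternative chosen after seeing the data, 6 of the 8 were called (3596 genes in all). Col4a3 is the gene most limited by depth, with 116 counts in aged bleo 4.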
